A study of Homo sapiens with 24 samples.

Results

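The response of parental HCT116 cells to oxaliplatin was measured by RNA sequencing of cells treated with 25 µM oxaliplatin for 24 h (3 libraries) and of untreated cells (3 libraries), which are 6 of the 24 libraries of the series. HCT116 is a human colorectal adenocarcinoma line. The libraries were chosen by their labels alone: line HCT116, no doxycycline, with or without oxaliplatin. All 6, the controls included, carry the genotype HCT116 TetOn-E1A, an adenovirus E1A transgene that doxycycline switches on, and none of the 6 received doxycycline. The control label reads untreated, and no vehicle is named. The labels call the replicates biological, and no label says whether they came from cultures treated on separate days, so the p-values measure the spread between these libraries. The other groups of the series are HCT116 with doxycycline, with and without oxaliplatin, and the oxaliplatin-resistant derivative HCT116 oxpl-R in the same 4 conditions.

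Oxaliplatin is a platinum drug that binds DNA, mainly at neighbouring guanines, and its adducts stop DNA and RNA polymerases. Damage kinases then stabilise p53, a transcription factor. p53 switches on inhibitors of the cell cycle, pro-apoptotic proteins, repair factors and its own antagonist MDM2, and the cyclin-dependent kinase inhibitor p21 (CDKN1A) lets repressor complexes silence genes of DNA replication and mitosis. Since RNA was taken from whole cultures, a change in the share of cells in a phase of the cycle and a change in the RNA of each cell cannot be told apart.

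In the count table used, each of the 6 libraries held between 29678513 and 31432309 counts. Of the 19023 genes tested, 4404 (23.2%) were called at an adjusted p below 0.05 by the quasi-likelihood test of edgeR with Benjamini-Hochberg adjustment, here called edgeR adjusted p. Of these, 2502 rose (13.2% of the tested genes) and 1902 fell (10.0%). A log2 fold change (log2FC) over 1 was reached by 840 rises (4.42%), and one under -1 by 621 falls (3.26%). The median log2FC of all tested genes was 0.022. Oxaliplatin replicate 3 stood apart from its group: ribosomal protein genes took 6.26% of its counts against 10.64% and 10.24% in oxaliplatin replicates 1 and 2, and the mitochondrial ribosomal RNAs 1.6% against 3.28% and 2.78%. The chi-square of its counts against those of its group was 214 and 195 per degree of freedom, against 23.3 between the other two. Without it 8158 genes were called, and without untreated replicate 1 or 2 the count was 1964 or 1824. In the fit without oxaliplatin replicate 3, 20.6% of the tested genes rose and 23.1% fell. The counts of each list in that fit, to be read beside these shares, are given with the main counts. The main counts of each list are to be read beside the 13.2% that rose and 10.0% that fell over all tested genes. All tested genes include genes of very few counts, which can seldom be called. Both shares therefore lie under those of well-expressed genes, and shares at matched expression were not counted. Where leaving out another library lowered a count by over 1.5 times, the range of rises and of falls over the 6 fits without 1 library follows in brackets, and its lowest values were reached without untreated replicate 1 or 2. Values per library are normalized counts, that is, counts scaled to the mean effective library size of the 6 libraries, and genes that sort after SETP6 come from the length-scaled second table. Overlap between the groups is given as a description of single genes, and its share over all tested genes was not counted.

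Among targets of p53, rises outnumbered falls. Of 116 tested targets in 4 lists (feedback and cell cycle arrest, apoptosis, repair, and metabolism with secretion and signalling), 63 rose and 2 fell (13.2% and 10.0% over all tested genes), with a median log2FC of 0.79 beside 0.022 over all tested genes. Without oxaliplatin replicate 3, 76 rose and 11 fell (range 48 to 76 and 1 to 11), beside 20.6% and 23.1% over all tested genes.

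In the list of feedback and arrest genes, 13 of 21 tested genes rose and none fell (median log2FC 0.75). With oxaliplatin replicate 3 left out, 13 rose and 3 fell. CDKN1A (chr6:36676460-36687337, GRCh38), which encodes p21, had normalized counts of 4219, 3850.1 and 4218 in the untreated libraries and 63959.7, 52826 and 51793 in the oxaliplatin libraries. The groups did not overlap and the level rose 13.7-fold (log2FC = 3.78, SE 0.15, edgeR adjusted p = 7.37e-06). MDM2 (chr12:68808177-68845544), the ubiquitin ligase that degrades p53, had 2927, 2935 and 2740.1 in the untreated libraries and 3191, 3763 and 5540.3 in the oxaliplatin libraries. All 3 oxaliplatin libraries lay above the untreated ones, but the spread among them was wide and the difference did not pass the test (log2FC = 0.54, SE 0.19, edgeR adjusted p = 0.0716). It passed without oxaliplatin replicate 1 (edgeR adjusted p = 0.0378). Without oxaliplatin replicate 3, its highest library, the log2FC was 0.24 (edgeR adjusted p = 0.0747). PPM1D, the phosphatase that turns off damage signalling, counted 1271, 1421 and 1282 in the untreated libraries and 2003, 2144 and 2194 in the oxaliplatin libraries, with no overlap (log2FC = 0.67, SE 0.13, edgeR adjusted p = 0.00598). GADD45A, a stress protein that inhibits the CDK1 kinase, gave 1791, 1816 and 2217 in the untreated libraries and 3513, 3591 and 2516 in the oxaliplatin libraries and rose as well (log2FC = 0.72, SE 0.17, edgeR adjusted p = 0.0136). SESN1, a sestrin that restrains mTORC1, had 275, 264 and 235 in the untreated libraries and 271, 426 and 494 in the oxaliplatin libraries, and its groups overlapped (log2FC = 0.62, SE 0.24, edgeR adjusted p = 0.0945). The related sestrin SESN2, which the list of the integrated stress response also holds, counted 997, 921 and 825 in the untreated libraries and 1844, 1875 and 1899 in the oxaliplatin libraries (log2FC = 1.03, SE 0.14, edgeR adjusted p = 0.00142). Calls that changed on leaving out 1 library were lost for GADD45A without untreated replicate 1 or 2 (edgeR adjusted p 0.0738 to 0.0754) and gained for SESN1 without oxaliplatin replicate 1 (edgeR adjusted p 0.0291). SESN1 had a log2FC of 0.39 without oxaliplatin replicate 3 (edgeR adjusted p = 0.104).

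Among p53 targets of apoptosis, 9 of 24 rose and none fell, and the median log2FC was 1.10. Leaving out oxaliplatin replicate 3, 14 rose and 0 fell. PHLDA3, an inhibitor of AKT signalling, had 974, 1128 and 1312 in the untreated libraries and 6594, 5819.8 and 5697 in the oxaliplatin libraries (log2FC = 2.41, SE 0.15, edgeR adjusted p = 5.88e-05). BBC3 (chr19:47220822-47232766), which encodes the BH3-only protein PUMA, counted 663, 651 and 658 in the untreated libraries and 3539, 3252 and 3016 in the oxaliplatin libraries, a rise of 4.97-fold with narrow spread in both groups (log2FC = 2.31, SE 0.14, edgeR adjusted p = 5.66e-05). BAX, the effector that permeabilises the mitochondrial outer membrane, gave 1051, 926 and 1194 in the untreated libraries and 3911, 3765 and 3039 in the oxaliplatin libraries (log2FC = 1.76, SE 0.16, edgeR adjusted p = 0.000364). Both death receptors named here rose. FAS had 254, 231 and 160.3 in the untreated libraries and 354, 405 and 558 in the oxaliplatin libraries (log2FC = 1.03, SE 0.25, edgeR adjusted p = 0.0157), and TNFRSF10B, the TRAIL receptor DR5, had 3946, 3968 and 3821 in the untreated libraries and 6878, 6365 and 7305 in the oxaliplatin libraries (log2FC = 0.81, SE 0.12, edgeR adjusted p = 0.00222). In none of the 5 genes did the groups overlap. The call was lost for FAS without untreated replicate 2 or 3 (edgeR adjusted p 0.0633 to 0.0671).

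The repair and nucleotide supply targets were split: 4 of 14 rose, 1 fell, and the median log2FC was 0.04. In the fit without oxaliplatin replicate 3, 5 rose and 6 fell (range 3 to 5 and 0 to 6). DDB2 (chr11:47214465-47239217), the damage sensor of global genome nucleotide excision repair, counted 1138, 1012 and 1169.7 in the untreated libraries and 5124, 4959.5 and 3861 in the oxaliplatin libraries (log2FC = 2.07, SE 0.15, edgeR adjusted p = 0.000157). RPS27L, a ribosomal protein paralog that p53 induces, had 883, 754 and 967 in the untreated libraries and 6263, 6651 and 1742 in the oxaliplatin libraries. Its level in oxaliplatin replicate 3 was above all untreated libraries but well under the other oxaliplatin libraries (log2FC = 2.49, SE 0.41, edgeR adjusted p = 0.00323). POLH, the polymerase eta that can bypass platinum adducts, gave 796, 768.5 and 782 in the untreated libraries and 1099.8, 1050.2 and 1476 in the oxaliplatin libraries (log2FC = 0.63, SE 0.17, edgeR adjusted p = 0.025). RRM2B, the p53-induced subunit of ribonucleotide reductase, counted 1548, 1447 and 1067 in the untreated libraries and 898, 1419 and 2145 in the oxaliplatin libraries, and the groups overlapped (log2FC = 0.14, SE 0.28, edgeR adjusted p = 0.749). The gene that fell was FANCC, a Fanconi anemia core factor, with 802, 839 and 828 in the untreated libraries and 574, 583 and 555 in the oxaliplatin libraries (log2FC = -0.53, SE 0.15, edgeR adjusted p = 0.0281). DDB2, RPS27L, POLH and FANCC showed no overlap between the groups. The calls were lost for POLH without untreated replicate 1, 2 or 3 (edgeR adjusted p 0.0782 to 0.112) and FANCC without untreated replicate 1, 2 or 3 or oxaliplatin replicate 1 or 2 (edgeR adjusted p 0.052 to 0.138).

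The largest of the lists, metabolism with secretion and signalling, had 37 of 57 tested genes higher and 1 lower (median log2FC 0.81). Without oxaliplatin replicate 3, 44 rose and 2 fell. GDF15 (chr19:18374731-18389176), a secreted stress cytokine, counted 1933, 1778 and 1496 in the untreated libraries and 15189, 13973 and 12868 in the oxaliplatin libraries, a rise of 8.07-fold (log2FC = 3.01, SE 0.15, edgeR adjusted p = 2.38e-05). The gene that fell was KITLG, the ligand of the KIT receptor, with 23427, 22951 and 15890.0 in the untreated libraries and 3551, 5418 and 10512 in the oxaliplatin libraries (log2FC = -1.68, SE 0.34, edgeR adjusted p = 0.00761). Of 7 tested noncoding RNAs that respond to p53, 3 rose and none fell, and without oxaliplatin replicate 3, 3 rose and 1 fell (range 1 to 3 and 0 to 1). MIR34AHG, the host transcript of miR-34a, had 41.2, 50.9 and 38.6 in the untreated libraries and 122, 169.5 and 206 in the oxaliplatin libraries (log2FC = 1.93, SE 0.27, edgeR adjusted p = 0.00167), and PVT1, the long noncoding RNA beside MYC, had 1766, 1576 and 2008 in the untreated libraries and 3012, 2935 and 2587 in the oxaliplatin libraries (log2FC = 0.67, edgeR adjusted p = 0.00848). PVT1 was named after its value was seen. PINCR, a p53-induced noncoding RNA, had no count in the untreated libraries and 22 counts over the oxaliplatin libraries, which is at least 7.8-fold higher with 3 counts over the group taken as the limit of a count of 0. The call was lost for PINCR without untreated replicate 1, 2 or 3 or oxaliplatin replicate 1 or 2 (edgeR adjusted p 0.061 to 0.0754).

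**Figure D1:**
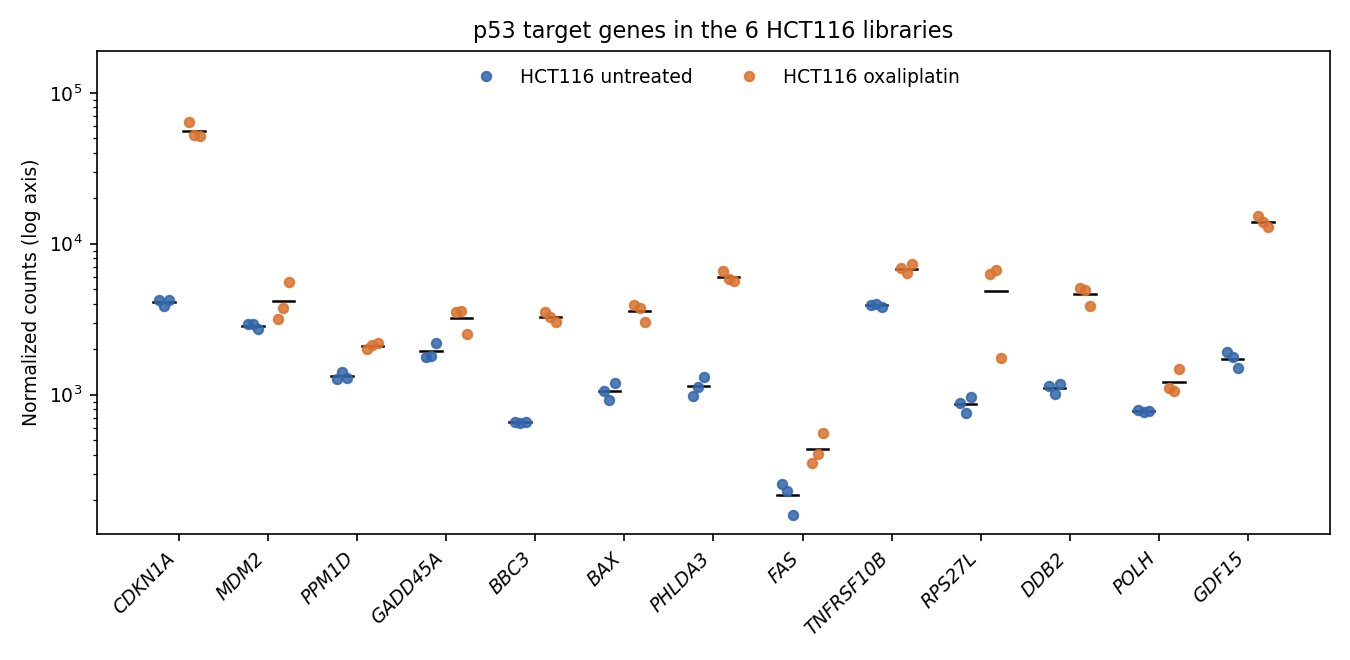
Normalized counts (log axis) of 13 p53 target genes in the 3 untreated (blue) and 3 oxaliplatin (orange) HCT116 libraries, with 1 point per library and a bar at each group mean. CDKN1A, BBC3, PHLDA3, DDB2 and GDF15 show wide gaps between the groups, MDM2 a small one, and RPS27L 1 oxaliplatin library far under the other two.

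Of the regulators of the pathway, 2 of 23 rose and 7 fell, and the median log2FC was -0.49. With oxaliplatin replicate 3 left out, 3 rose and 14 fell (range 2 to 3 and 3 to 14). MDM4 (chr1:204516379-204558120), the MDM2 relative that blocks the activation domain of p53, counted 1895, 1953 and 1739.9 in the untreated libraries and 544, 579.6 and 832 in the oxaliplatin libraries, a level 2.86-fold lower (log2FC = -1.51, SE 0.19, edgeR adjusted p = 0.0011). CHEK1, the checkpoint kinase that ATR activates, gave 1568, 1513 and 1149 in the untreated libraries and 573, 758 and 751 in the oxaliplatin libraries (log2FC = -1.02, SE 0.18, edgeR adjusted p = 0.00427). ATR had 517, 613 and 461 in the untreated libraries and 97.7, 145 and 701 in the oxaliplatin libraries. Its oxaliplatin replicates 1 and 2 were far under the untreated libraries and oxaliplatin replicate 3 above them, so the call depended on that library (log2FC = -0.75, SE 0.60, edgeR adjusted p = 0.411, and without oxaliplatin replicate 3 log2FC = -2.17, edgeR adjusted p = 5.23e-07). The genes that rose were CDKN2A and PPP1R13L, an inhibitor of p53 named after its value was seen. CDKN2A, whose locus encodes p16 and ARF, counted 2353, 2042 and 2723 in the untreated libraries and 8113, 6008 and 5135 in the oxaliplatin libraries (log2FC = 1.44, SE 0.19, edgeR adjusted p = 0.00133).

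The promoters of these genes were read because p53 binds DNA directly, at a pair of 10-base sites with a short spacer. The p53 response element was searched in RefSeq promoters (GRCh38.p14, from 250 bases before to 50 bases after each start), as a motif that is its own reverse complement, with at most 2 mismatches, a spacer of at most 1 base and the core C and G of each site kept. It was found for 184 of the 27305 genes that have a promoter in the table (0.674%) and for 7 of the 97 p53 targets among them (7.22%). Of the targets that rose, 5 of 52 held it (9.62%), and of the others 2 of 45 (4.44%). A match is a description of the letters and not a bound site. The stretches below show the matches of genes named above, in capitals, 5′ to 3′ on the plus strand. DDB2 (chr11:47214954-47215023) has 0 mismatches, with the match from base 6 to base 26 after the start. AEN (chr15:88621281-88621350), a nuclease named for this match, FAS (chr10:88991284-88991353) and MDM2 (chr12:68808898-68808967) have 2 each, upstream of the start. Where a gene has several promoters, the start is that of the promoter with the fewest mismatches. In DDB2 and MDM2 the stretch lies inside the gene positions given above, so that start is not the first base of the gene.
DDB2: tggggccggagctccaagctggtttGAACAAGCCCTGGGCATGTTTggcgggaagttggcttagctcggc
AEN: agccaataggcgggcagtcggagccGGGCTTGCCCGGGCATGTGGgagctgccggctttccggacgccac
FAS: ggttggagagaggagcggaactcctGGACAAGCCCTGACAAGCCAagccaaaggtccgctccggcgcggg
MDM2: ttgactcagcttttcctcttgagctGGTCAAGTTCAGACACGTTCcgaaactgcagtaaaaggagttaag
DDB2, AEN and FAS rose (log2FC 2.07, 1.35 and 1.03), and MDM2 did not pass the test (log2FC 0.54).

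Among genes of the G2 and M phases, falls outnumbered rises. Of 90 tested genes, 44 fell and none rose, with a median log2FC of -0.67. The count of falls was 24 without untreated replicate 1, 23 without untreated replicate 2 and 63 without oxaliplatin replicate 3, and in this last case 8 genes rose. The largest fall was that of HMMR (chr5:163460203-163491941), a spindle protein that binds hyaluronan, with 829, 776 and 618 in the untreated libraries and 89.1, 219 and 302 in the oxaliplatin libraries (log2FC = -1.86, SE 0.37, edgeR adjusted p = 0.00663). CCNB1, cyclin B1, the partner of CDK1 at mitotic entry, counted 8193, 8123 and 6036 in the untreated libraries and 2491, 3474 and 2596 in the oxaliplatin libraries, a level 2.61-fold lower with no overlap (log2FC = -1.39, SE 0.18, edgeR adjusted p = 0.00123). CDK1 gave 4846, 4939 and 3885 in the untreated libraries and 2666, 3683 and 2449.8 in the oxaliplatin libraries (log2FC = -0.64, SE 0.18, edgeR adjusted p = 0.0283). The call was lost for CDK1 without untreated replicate 1 or 2 or oxaliplatin replicate 1 (edgeR adjusted p 0.0666 to 0.12).

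Several regulators of mitosis did not pass the test. PLK1, the polo-like kinase of mitotic entry and spindle assembly, had 6754, 6519 and 7959 in the untreated libraries and 6596, 6131 and 5966 in the oxaliplatin libraries (log2FC = -0.18, SE 0.13, edgeR adjusted p = 0.35). CDC20, the activator of the anaphase-promoting complex, had 11813, 11939.7 and 14871 in the untreated libraries and 12437, 11979.5 and 10682 in the oxaliplatin libraries (log2FC = -0.14, SE 0.14, edgeR adjusted p = 0.507). AURKB, the kinase of the chromosomal passenger complex, and its partner BIRC5 (survivin) had log2FC of 0.28 and 0.15, both with overlapping groups (edgeR adjusted p = 0.186 and 0.507). FOXM1, the transcription factor of the mitotic program, had 4962, 5209 and 6373 in the untreated libraries and 5768, 6349 and 6599.6 in the oxaliplatin libraries, again with overlap (log2FC = 0.18, SE 0.14, edgeR adjusted p = 0.397). The proliferation marker MKI67 had 11097, 11228 and 12133 in the untreated libraries and 6979, 6294 and 11676 in the oxaliplatin libraries. Its oxaliplatin replicates 1 and 2 were low and the third was at the untreated level (log2FC = -0.47, SE 0.21, edgeR adjusted p = 0.156, and without oxaliplatin replicate 3 log2FC = -0.83, edgeR adjusted p = 5.56e-06). Without that library AURKB and BIRC5 passed the test as higher (log2FC = 0.31, edgeR adjusted p = 0.0355 for AURKB, and log2FC = 0.27, edgeR adjusted p = 0.0346 for BIRC5).

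The letters TTTGAA and CCAAT were searched on either strand in the same promoter windows, since the CHR element and the CCAAT box are the known promoter marks of this gene class. TTTGAA stood in 15.2% of all promoters and in 56 of 91 promoters of the G2 and M list (61.5%). It stood in 59.1% of the promoters of genes that fell and in 63.8% of the others. CCAAT stood in 34.6% of all promoters and in 72.5% of those of the list, in 75% where the gene fell and in 70.2% otherwise. HMMR (chr5:163460543-163460635) and CDK1 (chr10:60778412-60778512), which fell, are shown beside PLK1 (chr16:23678796-23678885) and CDC20 (chr1:43358861-43358941), which did not pass the test, with the searched letters, or their complement on the other strand, in capitals.
HMMR: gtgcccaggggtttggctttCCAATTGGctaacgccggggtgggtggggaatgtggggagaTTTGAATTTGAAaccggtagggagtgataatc
CDK1: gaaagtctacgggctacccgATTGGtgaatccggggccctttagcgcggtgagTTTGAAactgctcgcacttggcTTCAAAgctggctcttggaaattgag
PLK1: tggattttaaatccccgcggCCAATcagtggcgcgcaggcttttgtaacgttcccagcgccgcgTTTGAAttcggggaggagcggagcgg
CDC20: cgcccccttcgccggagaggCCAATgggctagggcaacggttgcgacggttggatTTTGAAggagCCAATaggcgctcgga
Each window was placed around a TTTGAA and any CCAAT up to 60 bases before it, so its TTTGAA follows from this choice. All 4 windows hold CCAAT as well, and in HMMR the CCAAT of both strands overlap.

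Among genes of DNA replication and S phase, 35 of 73 fell and 5 rose, and the median log2FC was -0.53. The falls numbered 16 without untreated replicate 1, 16 without untreated replicate 2, 22 without untreated replicate 3 and 51 without oxaliplatin replicate 3, and in this last fit 8 genes rose. MCM6, a subunit of the replicative helicase, had the largest fall, with 4972, 5344 and 3863 in the untreated libraries and 987, 1585 and 2601 in the oxaliplatin libraries (log2FC = -1.45, SE 0.30, edgeR adjusted p = 0.0078). CDC6, which loads that helicase, counted 3887, 4091 and 3611 in the untreated libraries and 1933, 2076 and 2709 in the oxaliplatin libraries (log2FC = -0.79, SE 0.15, edgeR adjusted p = 0.00622), where the groups did not overlap, while the helicase subunit MCM2 had 8735, 9064 and 10313 in the untreated libraries and 9360.2, 9359 and 9086 in the oxaliplatin libraries with overlapping groups (log2FC = -0.02, SE 0.12, edgeR adjusted p = 0.941). CCNE2, cyclin E2, gave 677, 658 and 635 in the untreated libraries and 261, 343 and 421 in the oxaliplatin libraries (log2FC = -0.94, SE 0.20, edgeR adjusted p = 0.0096), and RRM2, the ribonucleotide reductase subunit of S phase, gave 15634, 16745 and 18094 in the untreated libraries and 13473, 12893 and 11252 in the oxaliplatin libraries (log2FC = -0.42, SE 0.13, edgeR adjusted p = 0.0422).

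The 5 genes that rose were POLD1 and POLD2 (subunits of DNA polymerase delta), TK1 (thymidine kinase), E2F1 (the transcription factor of S phase entry) and LIG1 (DNA ligase I, log2FC = 0.46). POLD1 had 2966, 2928 and 3362 in the untreated libraries and 5538, 5032 and 4633 in the oxaliplatin libraries (log2FC = 0.72, SE 0.13, edgeR adjusted p = 0.00434). TK1 had 12499.5, 12326 and 14202 in the untreated libraries and 20920.1, 21239 and 20184 in the oxaliplatin libraries (log2FC = 0.68, SE 0.12, edgeR adjusted p = 0.00408). E2F1 had 2383, 2222 and 2772 in the untreated libraries and 3758, 3327 and 3662 in the oxaliplatin libraries (log2FC = 0.54, SE 0.13, edgeR adjusted p = 0.0168). POLD2 and LIG1 were named after their values were seen. All 5 lost the call when each library's trend over transcript GC content and transcript length was removed, as described below. E2F1 then had a log2FC of -0.04. Of 49 replication-dependent histone genes tested, whose transcripts mostly lack a poly(A) tail, none rose and none fell, and without oxaliplatin replicate 3, 4 rose and 1 fell. The calls of this group were lost for CCNE2 without untreated replicate 1 or 2 (edgeR adjusted p 0.0513 to 0.0521), RRM2 without untreated replicate 1, 2 or 3 or oxaliplatin replicate 2 (edgeR adjusted p 0.0957 to 0.134) and E2F1 without untreated replicate 1 or 2 or oxaliplatin replicate 1 (edgeR adjusted p 0.0688 to 0.105).

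DNA repair genes were mixed. Of 48 genes of the Fanconi anemia and homologous recombination pathways, which repair interstrand crosslinks and breaks, 4 rose and 8 fell, and without oxaliplatin replicate 3, 6 rose and 31 fell (range 0 to 6 and 1 to 31). The shares over all tested genes were 13.2% and 10.0%, and 20.6% and 23.1% without oxaliplatin replicate 3. FANCD2 had 1292, 1369 and 1186 in the untreated libraries and 571, 534 and 1369.7 in the oxaliplatin libraries (log2FC = -0.64, SE 0.32, edgeR adjusted p = 0.199, and without oxaliplatin replicate 3 log2FC = -1.25, edgeR adjusted p = 1.71e-06). BRCA1 had 571, 626 and 623 in the untreated libraries and 184, 214 and 768 in the oxaliplatin libraries (log2FC = -0.64, SE 0.46, edgeR adjusted p = 0.369, and without oxaliplatin replicate 3 log2FC = -1.65, edgeR adjusted p = 6.16e-07). In both genes oxaliplatin replicates 1 and 2 lay under all untreated libraries and oxaliplatin replicate 3 did not. The largest rise was that of SLX1A, a nuclease subunit with a near-identical copy (SLX1B), whose counts are uncertain (log2FC = 1.09), and the largest fall that of RAD54B, a recombination ATPase, with 691, 788 and 511 in the untreated libraries and 122, 279 and 447 in the oxaliplatin libraries (log2FC = -1.23, SE 0.39, edgeR adjusted p = 0.0473). In nucleotide excision repair, which removes platinum adducts, 5 of 23 rose and 8 fell, and without oxaliplatin replicate 3, 7 rose and 12 fell (range 2 to 7 and 3 to 12). ERCC1, the partner of the XPF nuclease, counted 2154, 2104 and 2299.9 in the untreated libraries and 4723, 4437 and 3789 in the oxaliplatin libraries (log2FC = 0.98, SE 0.13, edgeR adjusted p = 0.00142). CCNH, the cyclin of the kinase module of TFIIH, gave 1104, 1057 and 765 in the untreated libraries and 362, 490.0 and 513 in the oxaliplatin libraries (log2FC = -1.10, SE 0.21, edgeR adjusted p = 0.00521). The other members of that module, CDK7 and MNAT1, had log2FC of -1.08 and -1.07 (edgeR adjusted p = 0.00219 and 0.00829), and were named after their values were seen. Of 12 translesion synthesis genes, 1 rose (MAD2L2, log2FC 0.69) and 2 fell (SPRTN, log2FC -0.78, and PRIMPOL, log2FC -0.73, the latter named after its value was seen). Without oxaliplatin replicate 3, 1 rose and 10 fell (range 0 to 1 and 0 to 10). DDB2, POLH and FANCC, given above with the p53 targets, were not counted in these repair lists. The calls were lost for SLX1A without untreated replicate 1 or 2 (edgeR adjusted p 0.0596 to 0.0701), RAD54B without untreated replicate 1, 2 or 3 or oxaliplatin replicate 1 or 2 (edgeR adjusted p 0.0522 to 0.159), MAD2L2 without untreated replicate 1 or 2 (edgeR adjusted p 0.0529 to 0.0556) and SPRTN without untreated replicate 1 or 2 or oxaliplatin replicate 1 (edgeR adjusted p 0.0758 to 0.132).

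Of 22 BCL2 family genes, which decide on mitochondrial cell death, 9 rose and 2 fell (median log2FC 0.63). Leaving out oxaliplatin replicate 3, 12 rose and 4 fell (range 6 to 12 and 0 to 4). BBC3 and BAX, given above, led the list, and the anti-apoptotic BCL2L1 rose too (log2FC = 0.80, edgeR adjusted p = 0.00303), as named after its value was seen. MCL1, an anti-apoptotic member with a short-lived protein, had 6066, 6372 and 6134 in the untreated libraries and 4181, 4593 and 4576 in the oxaliplatin libraries (log2FC = -0.48, SE 0.12, edgeR adjusted p = 0.0158). BNIP3L, a mitophagy receptor, had 2005, 1898 and 1466 in the untreated libraries and 1005, 1204 and 1179 in the oxaliplatin libraries (log2FC = -0.66, SE 0.16, edgeR adjusted p = 0.0166). With the trend over transcript GC content and transcript length removed, its log2FC was 0.01. The calls were lost for MCL1 without untreated replicate 1 or 2 (edgeR adjusted p 0.0749 to 0.0893) and BNIP3L without untreated replicate 1 or 2 (edgeR adjusted p 0.0908 to 0.0985).

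The integrated stress response, in which the factor ATF4 drives amino acid synthesis and transport, had 17 of 35 genes lower and 4 higher (median log2FC -0.75). In the fit without oxaliplatin replicate 3, 4 rose and 21 fell (range 3 to 4 and 11 to 21). ATF4 counted 30487, 29463 and 27076 in the untreated libraries and 18248, 18873 and 9417 in the oxaliplatin libraries (log2FC = -0.90, SE 0.24, edgeR adjusted p = 0.0216), the lowest value being that of oxaliplatin replicate 3. DDIT3, the pro-apoptotic factor CHOP, gave 258, 249 and 155 in the untreated libraries and 115, 128 and 90.2 in the oxaliplatin libraries (log2FC = -0.99, SE 0.26, edgeR adjusted p = 0.0217). SLC7A11, the cystine importer and also an NRF2 target, had 789.9, 809.8 and 447 in the untreated libraries and 57.8, 100.1 and 302 in the oxaliplatin libraries (log2FC = -2.15, SE 0.53, edgeR adjusted p = 0.0178). The 4 genes that rose were SESN2, ATF3, CEBPB and PPP1R15A, of which SESN2 and ATF3 are also p53 targets. ATF3, a stress-induced transcription factor, had a log2FC of 0.94, CEBPB of 0.74 and PPP1R15A, which reverses the response, of 0.62, these 3 being named after their values were seen. The calls were lost for ATF4 without untreated replicate 1, 2 or 3 (edgeR adjusted p 0.0702 to 0.076), DDIT3 without untreated replicate 1 or 2 (edgeR adjusted p 0.104 to 0.106) and SLC7A11 without untreated replicate 1 or 2 or oxaliplatin replicate 2 (edgeR adjusted p 0.0579 to 0.067).

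Of 31 targets of NF-kappaB, 9 rose and 3 fell, and without oxaliplatin replicate 3, 10 rose and 3 fell (range 5 to 10 and 0 to 3). Among all tested genes 13.2% rose and 10.0% fell, and 20.6% and 23.1% without oxaliplatin replicate 3. ICAM1, an adhesion molecule, had 80.6, 56.6 and 62.9 in the untreated libraries and 251, 216 and 249 in the oxaliplatin libraries (log2FC = 1.84, SE 0.23, edgeR adjusted p = 0.00106). NFKBIA, the inhibitor in the negative feedback loop, counted 1045, 938 and 1055 in the untreated libraries and 1826, 1643 and 1502 in the oxaliplatin libraries (log2FC = 0.71, SE 0.14, edgeR adjusted p = 0.00723). CXCL8, the chemokine interleukin-8, and TNFAIP3, the inhibitor A20, overlapped between the groups (log2FC 0.72 and -0.33, edgeR adjusted p = 0.297 and 0.419). REL, an NF-kappaB subunit, had 149.6, 139.6 and 170.4 in the untreated libraries and 36.5, 47.5 and 104 in the oxaliplatin libraries (log2FC = -1.28, SE 0.36, edgeR adjusted p = 0.0308).

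Interferon-stimulated genes had 12 of 48 higher and 2 lower, and without oxaliplatin replicate 3, 16 rose and 12 fell (range 11 to 16 and 0 to 12). These counts stand beside 13.2% and 10.0% over all tested genes, and 20.6% and 23.1% without oxaliplatin replicate 3. IFI6 had 351, 311 and 399.7 in the untreated libraries and 1215, 1179 and 936 in the oxaliplatin libraries (log2FC = 1.65, SE 0.18, edgeR adjusted p = 0.000729). ISG15, a ubiquitin-like modifier, counted 2438, 2346 and 2735 in the untreated libraries and 8427, 6867 and 5025 in the oxaliplatin libraries (log2FC = 1.43, SE 0.19, edgeR adjusted p = 0.00128). IFIT1, a sensor of foreign RNA, was lower in the means (118, 145 and 62.9 in the untreated libraries and 27.9, 63.7 and 42.7 in the oxaliplatin libraries, log2FC = -1.28, SE 0.39, edgeR adjusted p = 0.0388), though 1 oxaliplatin library reached the untreated range. The other fall was that of IFIT5 (log2FC = -0.78). Of the 12 that rose, HLA-B and HLA-C (class I antigen presentation, near-identical in parts), TAP1 and PSMB9 (peptide transport and cleavage) had log2FC of 1.07, 0.80, 1.55 and 1.38. IFIT5 and these 4 genes were named after their values were seen. The calls in these 2 lists were lost for NFKBIA without untreated replicate 2 (edgeR adjusted p 0.0575), REL without untreated replicate 1, 2 or 3 or oxaliplatin replicate 1 or 2 (edgeR adjusted p 0.0643 to 0.125) and IFIT1 without untreated replicate 1 or 2 or oxaliplatin replicate 1 (edgeR adjusted p 0.0925 to 0.168).

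AP-1 and immediate early genes had 16 of 33 higher and 2 lower, with a median log2FC of 0.50, and without oxaliplatin replicate 3, 16 rose and 6 fell (range 10 to 16 and 1 to 6). JUN counted 543, 597 and 609 in the untreated libraries and 1078, 1161 and 1038 in the oxaliplatin libraries (log2FC = 0.91, SE 0.15, edgeR adjusted p = 0.00301), and FOS, its partner in AP-1, gave 258, 274 and 274 in the untreated libraries and 337, 366 and 365 in the oxaliplatin libraries (log2FC = 0.41, SE 0.17, edgeR adjusted p = 0.126). CCN2, a matricellular protein, had the largest rise, with 48.9, 53.7 and 71.0 in the untreated libraries and 191, 246 and 165 in the oxaliplatin libraries (log2FC = 1.79, SE 0.26, edgeR adjusted p = 0.00179). EGR1, a zinc finger factor of the immediate early class, had the largest fall, with 3748, 3278 and 3648 in the untreated libraries and 1674, 1756 and 2044 in the oxaliplatin libraries (log2FC = -0.96, SE 0.14, edgeR adjusted p = 0.00165). Of these 4 genes all but FOS passed the test. The groups overlapped in none of them, FOS included, so a lack of overlap is not by itself a call.

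Of 83 genes of ribosome biogenesis, 24 fell and 7 rose (median log2FC -0.33). Without oxaliplatin replicate 3, 16 rose and 44 fell (range 0 to 16 and 11 to 44). NPM1, nucleophosmin, a nucleolar chaperone, had 57182, 49984 and 39521 in the untreated libraries and 13346, 18648 and 16751 in the oxaliplatin libraries (log2FC = -1.59, SE 0.18, edgeR adjusted p = 0.000886). NCL, nucleolin, counted 45253, 44986 and 50592 in the untreated libraries and 24669.5, 24128 and 30806 in the oxaliplatin libraries (log2FC = -0.82, SE 0.15, edgeR adjusted p = 0.00406). POLR1A, the catalytic subunit of RNA polymerase I, had 3714, 3955 and 4404 in the untreated libraries and 4451, 4199.7 and 5469 in the oxaliplatin libraries with overlapping groups (log2FC = 0.23, SE 0.14, edgeR adjusted p = 0.3), and MYC had 15530.4, 14923 and 16728 in the untreated libraries and 14444, 13500.3 and 12671 in the oxaliplatin libraries, also not called (log2FC = -0.22, SE 0.12, edgeR adjusted p = 0.254). The largest rise was that of GRWD1, a histone chaperone (log2FC = 0.59), and its call was lost for GRWD1 without untreated replicate 1 or 2 or oxaliplatin replicate 1 (edgeR adjusted p 0.0639 to 0.0992).

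Of 18 genes of platinum transport, 1 rose and 1 fell, and with oxaliplatin replicate 3 left out, 2 rose and 5 fell (range 0 to 2 and 0 to 5). For this list and those that follow, all tested genes had 13.2% higher and 10.0% lower, and 20.6% and 23.1% without oxaliplatin replicate 3. ATOX1, a copper chaperone, had 617, 544 and 612 in the untreated libraries and 1072, 1044 and 768 in the oxaliplatin libraries (log2FC = 0.70, SE 0.18, edgeR adjusted p = 0.0186), and SLC31A1, the copper importer CTR1, had 1674, 1726 and 1496 in the untreated libraries and 904, 952 and 1312 in the oxaliplatin libraries (log2FC = -0.63, SE 0.18, edgeR adjusted p = 0.0324). ABCC2, the exporter MRP2, had 5271, 5342 and 5039 in the untreated libraries and 3425, 3043 and 5798 in the oxaliplatin libraries, where oxaliplatin replicate 3 was above the untreated libraries and the others under them (log2FC = -0.35, SE 0.22, edgeR adjusted p = 0.296, and without oxaliplatin replicate 3 log2FC = -0.73, edgeR adjusted p = 2.65e-05). In the list of metallothioneins and glutathione enzymes, which bind platinum or its products, 9 of 28 rose and 2 fell, and without oxaliplatin replicate 3, 13 rose and 2 fell (range 6 to 13 and 1 to 3). MT2A counted 2922, 2181 and 2460.1 in the untreated libraries and 5724, 4928 and 5264 in the oxaliplatin libraries (log2FC = 1.07, SE 0.14, edgeR adjusted p = 0.00142), and MT1F, from a cluster of near-identical genes and so uncertain, had a log2FC of 1.37. The largest fall was that of GPX8 (log2FC = -1.26, edgeR adjusted p = 0.00643). Of 24 NRF2 targets, 7 rose and 4 fell, with a median log2FC of -0.03. Leaving out oxaliplatin replicate 3, 8 rose and 6 fell (range 5 to 8 and 0 to 6). HMOX1, heme oxygenase, had 1362, 1397 and 1489 in the untreated libraries and 3022, 3028 and 2656 in the oxaliplatin libraries (log2FC = 1.03, SE 0.13, edgeR adjusted p = 0.00112), and GCLM, a subunit of the first enzyme of glutathione synthesis, had 1533, 1669 and 1667 in the untreated libraries and 1415, 1316 and 1066 in the oxaliplatin libraries (log2FC = -0.36, SE 0.15, edgeR adjusted p = 0.122). The calls were lost for ATOX1 without untreated replicate 1, 2 or 3 or oxaliplatin replicate 1 or 2 (edgeR adjusted p 0.0578 to 0.106), SLC31A1 without untreated replicate 1, 2 or 3 or oxaliplatin replicate 1 or 2 (edgeR adjusted p 0.0639 to 0.134) and MT1F without untreated replicate 2 or 3 (edgeR adjusted p 0.0547 to 0.0586).

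The label of an epithelial colon cancer line was checked against markers. EPCAM had 9653, 9487 and 10356 in the untreated libraries and 10759, 11546 and 7337 in the oxaliplatin libraries (log2FC = 0.01, SE 0.17, edgeR adjusted p = 0.984), and KRT8, KRT18, KRT19, CDH1 and CDX2 were present in every library. LGR5, TFF1, TFF3, FABP1 and SLC26A3, which the list of intestinal epithelial identity also holds, were at 0 in all 6 libraries. VIL1 was not analysed. Of 27 tested genes of intestinal epithelial identity, 7 rose and none fell, among them KRT8, KRT18 and KRT19 (log2FC 0.98, 0.86 and 1.05), and the largest rise was that of CEACAM1, an adhesion molecule, with 15.3, 40.5 and 19.3 in the untreated libraries and 113, 69.1 and 64.5 in the oxaliplatin libraries (log2FC = 1.70, SE 0.41, edgeR adjusted p = 0.0155). The call was lost for CEACAM1 without untreated replicate 1 or 3 or oxaliplatin replicate 1 (edgeR adjusted p 0.0632 to 0.0833). In the list without oxaliplatin replicate 3, 7 rose and 1 fell (range 4 to 7 and 0 to 1). Of 14 tested markers of other cell types none was called with all 6 libraries, 3 rose and none fell without oxaliplatin replicate 3, and their summed level was 25.4 to 31.3 CPM (counts scaled to 1 common library size) in the untreated and 36.9 to 42 CPM in the oxaliplatin libraries. DCN, PTPRC and CD3E, which define fibroblasts, leukocytes and T cells, were at 0. Of 13 mitochondrially encoded genes, 5 rose and none fell, led by MT-ND5 (114349, 101132 and 137239.8 in the untreated libraries and 216903, 216163 and 253379 in the oxaliplatin libraries, log2FC = 0.96, SE 0.17, edgeR adjusted p = 0.00353). Without oxaliplatin replicate 3, 10 rose and 0 fell (range 3 to 10 and 0 to 0). Genes of the mitochondrial genome took 11.68% to 14.95% of the counts of the untreated libraries and 17.14% to 19.49% of those of the oxaliplatin libraries. The part of this share in the other results was not tested, except that leaving these genes out before normalization changed no call among 101 named genes.

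**Figure D2:**
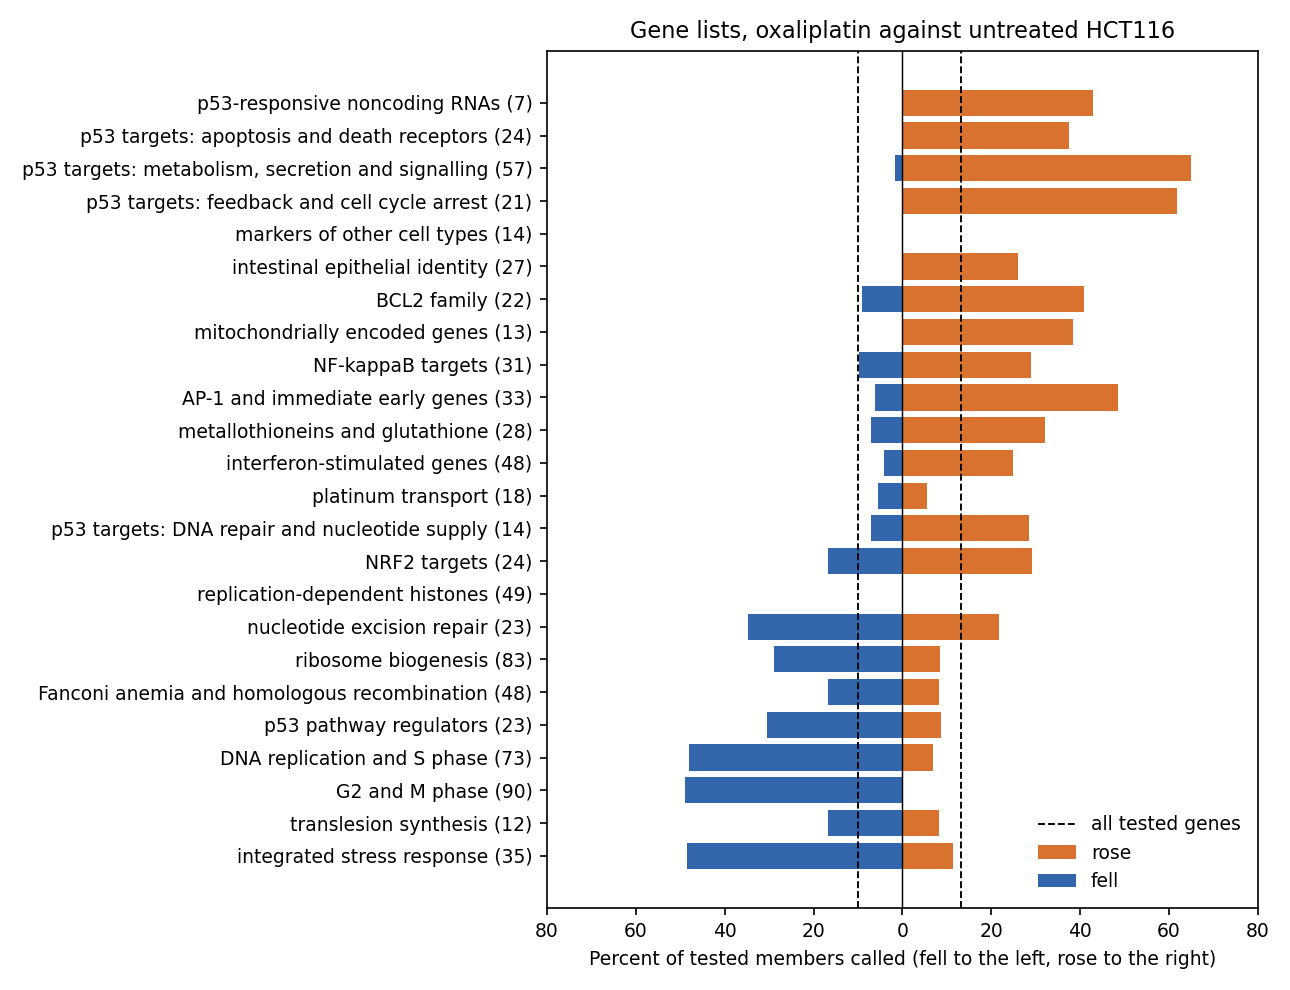
Percent of the tested members of 24 gene lists that rose (orange, to the right) or fell (blue, to the left) in oxaliplatin against untreated HCT116, ordered by their median log2FC, with the number of tested members in brackets and dashed lines at the shares over all tested genes (13.2% and 10.0%). Of the p53 targets 63 of 116 were higher over the 4 lists, and G2 and M phase, replication and the integrated stress response lie on the left, with 44 of 90, 35 of 73 and 17 of 35 members lower.

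The largest rises were looked for among 795 called genes with a log2FC over 1, no overlap and at least 10 counts in every oxaliplatin library. PDE6G (chr17:81650459-81663112), a subunit of the phosphodiesterase of rod photoreceptors, went from 2.9, 0 and 3.0 to 440.4, 365 and 542 normalized counts (log2FC = 7.76, edgeR adjusted p = 5.88e-05). FRMPD2, a scaffold protein, had no count in the untreated libraries and 47 in the oxaliplatin libraries, at least 16.6-fold higher. MSLNL had 1 count against 72, a ratio of 76.4 (95% counting interval 13.3 to 3058.8). CTRB2, a chymotrypsinogen with a close paralog, had 2 against 121 (64.2, 17.4 to 536.1), and AZU1, a granule protein of neutrophils, 1 against 64 (67.9, 11.8 to 2723.5). These intervals cover counting error only. INPP5D, the phosphatase SHIP1 of blood cells, went from 7.7, 7.5 and 3.0 to 163, 106 and 178 (log2FC = 4.58, SE 0.39, edgeR adjusted p = 0.000291). EDN2, endothelin 2, went from 0, 3.8 and 0 to 36.5, 32.4 and 21.8, and GZMM, a granzyme of killer lymphocytes, from 14.4, 11.3 and 9.1 to 214, 161 and 115 (log2FC = 4.43 and 3.79, edgeR adjusted p = 0.00733 and 0.000364). CGB5, one of several near-identical chorionic gonadotropin genes and so uncertain, had a log2FC of 3.99. CDKN1A was the member of the set with the highest level, and the others were low in the untreated cells.

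The largest falls were taken from 605 genes chosen the same way, with at least 10 counts in every untreated library. ST6GALNAC3, a sialyltransferase gene of 559.9 kb, went from 70.7, 149.5 and 117 to 4.3, 11.8 and 4.8 (log2FC = -3.99, SE 0.52, edgeR adjusted p = 0.00143), and B3GALT1, a galactosyltransferase gene of 581.0 kb, from 28.8, 32.1 and 19.3 to 0, 2.2 and 3.8 (log2FC = -3.64, SE 0.76, edgeR adjusted p = 0.00807). TNFSF18, a ligand of the TNF family, had log2FC = -3.41 and OR51B2, an olfactory receptor, -3.26 (edgeR adjusted p = 0.0365 and 0.00423). Another 5 share sequence with another gene, so their counts are uncertain. FMC1-LUC7L2 and ATP6V1G2-DDX39B are readthrough transcripts, NSUN5P1 and NPM1P27 pseudogenes, and HNRNPA1L2 a copy of HNRNPA1. FMC1-LUC7L2 had 384 counts against none (at least 120.6-fold lower) and NSUN5P1 221 against none (at least 69.4-fold lower), NPM1P27 had 41 against 2 (ratio 19.3, 5.0 to 164.9), and the log2FC of ATP6V1G2-DDX39B and HNRNPA1L2 were -3.96 and -4.20. In these 2 sets the call was lost for CGB5 without untreated replicate 2 (edgeR adjusted p 0.0512), NPM1P27 without untreated replicate 1 or 2 or oxaliplatin replicate 1 (edgeR adjusted p 0.0506 to 0.0887) and TNFSF18 without untreated replicate 1, 2 or 3 or oxaliplatin replicate 1 or 2 (edgeR adjusted p 0.067 to 0.161).

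Across genes, the response followed the GC content of the transcript and the length of the gene. Over 11611 protein-coding genes with a mean of at least 10 counts, the median log2FC was -0.655 where GC content was at most 40%, -0.49 from 40% to 45%, -0.196 from 45% to 50%, 0.165 from 50% to 55%, 0.437 from 55% to 60%, 0.638 from 60% to 65% and 0.663 above. Of the genes at or under 40% GC, 0.262% rose and 35.3% fell, and from 60% to 65% GC 57% rose and 3.82% fell. By length on the genome, the median was 0.547 up to 5 kb, 0.335 from 5 to 20 kb, -0.058 from 20 to 50 kb, -0.316 from 50 to 100 kb, -0.366 from 100 to 200 kb and -0.528 above 200 kb. In the medians of the group each trend was also seen within classes of the other property. At GC content of at most 45% the median was -0.365 up to 20 kb and -0.582 above 100 kb, and above 55% it was 0.635 and 0.108. By length of the longest transcript, the median was 0.459 up to 1500 bases and -0.358 above 6000 bases.

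All 3 oxaliplatin libraries showed the trend with GC content, while the trend with length differed in oxaliplatin replicate 3. At GC content of at most 45%, the median difference from the untreated mean went from -0.397 in genes up to 20 kb to -1.019 above 100 kb in oxaliplatin replicate 1 and from -0.174 to -0.833 in replicate 2, but from -0.699 to -0.187, the opposite direction, in replicate 3. From 45% to 55% GC replicate 3 had -0.058 and -0.071, where replicates 1 and 2 went from 0.32 to -0.359 and from 0.324 to -0.394. Above 55% GC all 3 fell with length, to 0.059, 0.033 and 0.239. In genes above 200 kb the median difference from the untreated mean was -0.752, -0.735 and -0.196 in oxaliplatin replicates 1, 2 and 3, and in genes at or under 40% GC it was -1.06, -0.7 and -0.474. Among the untreated libraries the same medians at or under 40% GC were 0.091, 0.088 and -0.184. When each library's own trend over transcript GC content and transcript length was removed, an alternative chosen after seeing the data, 2646 genes were called. Of these, 1368 rose and 1278 fell, against 2502 and 1902 in the main fit. The list counts that follow are to be read beside them. The p53 targets then had 69 genes higher and 4 lower, with a median log2FC of 0.80, and MDM2 passed the test (log2FC = 1.14, edgeR adjusted p = 0.000101). G2 and M genes had 34 lower and none higher, replication genes 24 lower and none higher, and the integrated stress response 17 lower and 2 higher. In nucleotide excision repair the counts fell to 1 higher and 1 lower, and in the NF-kappaB list to 4 and none. Calls over all tested genes were fewer too, so such a drop is not by itself a result about these lists. The median GC content was 43.4% in the G2 and M list and 48.3% in the p53 lists, against 49.2% over the protein-coding genes. Length on the genome was not part of the removal. After it, the median log2FC was 0.12 in genes up to 5 kb and -0.218 above 200 kb. The cause of these trends was not tested.

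**Figure D3:**
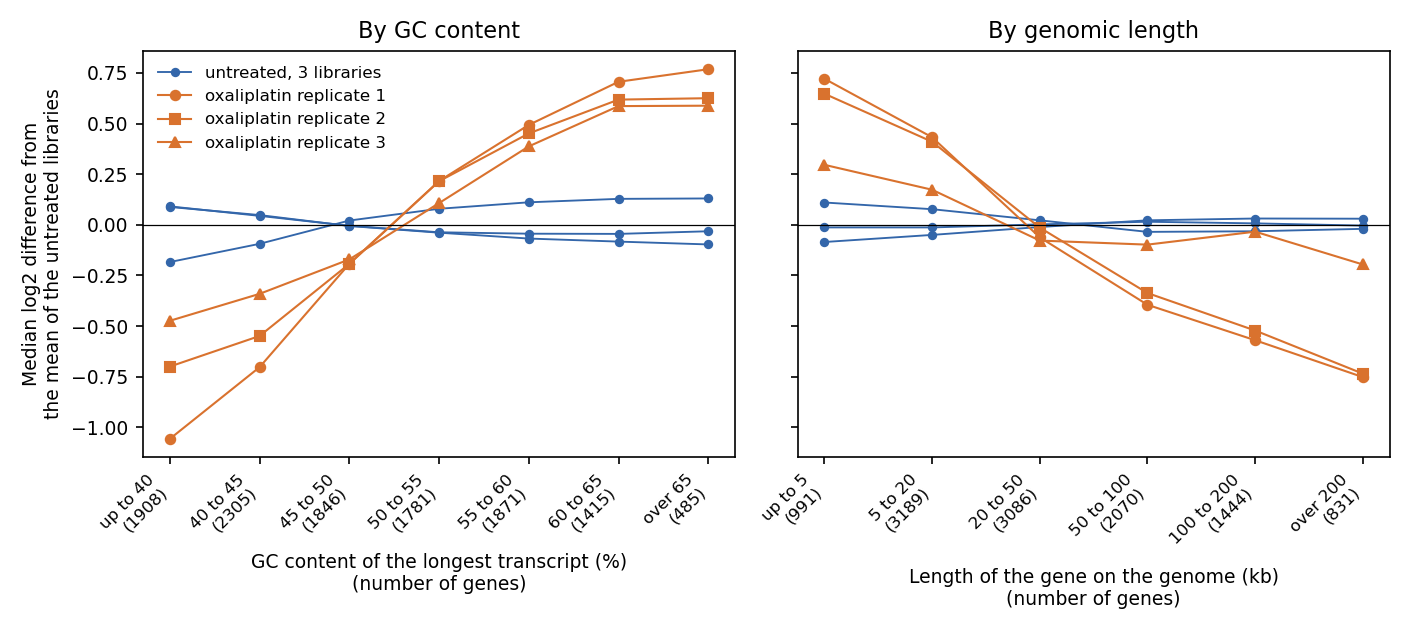
Median log2 difference of each library from the mean of the untreated libraries, in bins of transcript GC content (percent, left) and genomic length (kb, right), for protein-coding genes, with the number of genes in brackets, blue lines for the untreated libraries and orange lines for the oxaliplatin libraries. The oxaliplatin lines climb with GC content, those of oxaliplatin replicates 1 and 2 drop with length to -0.752 and -0.735 above 200 kb, and that of replicate 3 stays nearer to 0 in the long genes (-0.196 above 200 kb).

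The response of the parental cells was set against that of HCT116 oxpl-R, a line derived from HCT116 by repeated oxaliplatin pulses, in a single fit of the 12 libraries with an interaction term. Of 21018 genes tested, 159 (0.756%) responded more positively in HCT116 oxpl-R and 390 (1.86%) more negatively. Of these 549 genes, 400 were also called in HCT116, and both sets use the same 6 HCT116 libraries. The count was 1894 without oxaliplatin replicate 3 of HCT116 and 1488 without oxaliplatin replicate 1 of HCT116 oxpl-R, in which mitochondrial genes took 1.38% of the counts. It was 170 without untreated replicate 1, 163 without untreated replicate 2 and 243 without oxaliplatin replicate 1 of HCT116, and 288 and 263 without untreated replicates 1 and 2 of HCT116 oxpl-R. Of 90 G2 and M genes, 34 were more negative in HCT116 oxpl-R and none more positive (median difference -1.25). Of 73 replication genes, 23 were more negative and none more positive (-0.91). Of the 116 p53 targets, 9 were more positive and 3 more negative (0.20).

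PLK1 shows the contrast. Its level was 236, 232 and 280 CPM in untreated and 220, 206 and 198 CPM in treated HCT116, and 174, 185 and 169 CPM in untreated and 31.9, 17.8 and 25.8 CPM in treated HCT116 oxpl-R (difference -2.59, SE 0.27, edgeR adjusted p = 6.15e-05). E2F1 rose in HCT116 from 83.2, 79.2 and 97.5 to 125, 112 and 122 CPM, while in HCT116 oxpl-R the values were 86.6, 103 and 97.8 without and 24.5, 20.3 and 20.7 CPM with the drug (difference -2.65, SE 0.23, edgeR adjusted p = 1.79e-05). CCNB1 and HMMR, which fell in HCT116, did not pass the test of the difference (difference -0.34, SE 0.35, edgeR adjusted p = 0.736 for CCNB1, and difference -0.34, SE 0.67, edgeR adjusted p = 0.968 for HMMR). MDM2 had 102, 105 and 96.4 and 107, 126 and 184 CPM in HCT116 and 181, 168 and 150 and 604, 712 and 798 CPM in HCT116 oxpl-R (difference 1.57, SE 0.28, edgeR adjusted p = 0.00559). BBC3 went from 23.1, 23.2 and 23.2 to 118, 109 and 100 CPM in HCT116 and from 37.2, 42.4 and 37.7 to 94.6, 91 and 53.3 CPM in HCT116 oxpl-R (difference -1.26, SE 0.27, edgeR adjusted p = 0.0192). The BBC3 difference was lost in 3 of the 12 fits without 1 library. CDKN1A did not pass this test (difference -0.88, SE 0.27, edgeR adjusted p = 0.0887).

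**Figure D4:**
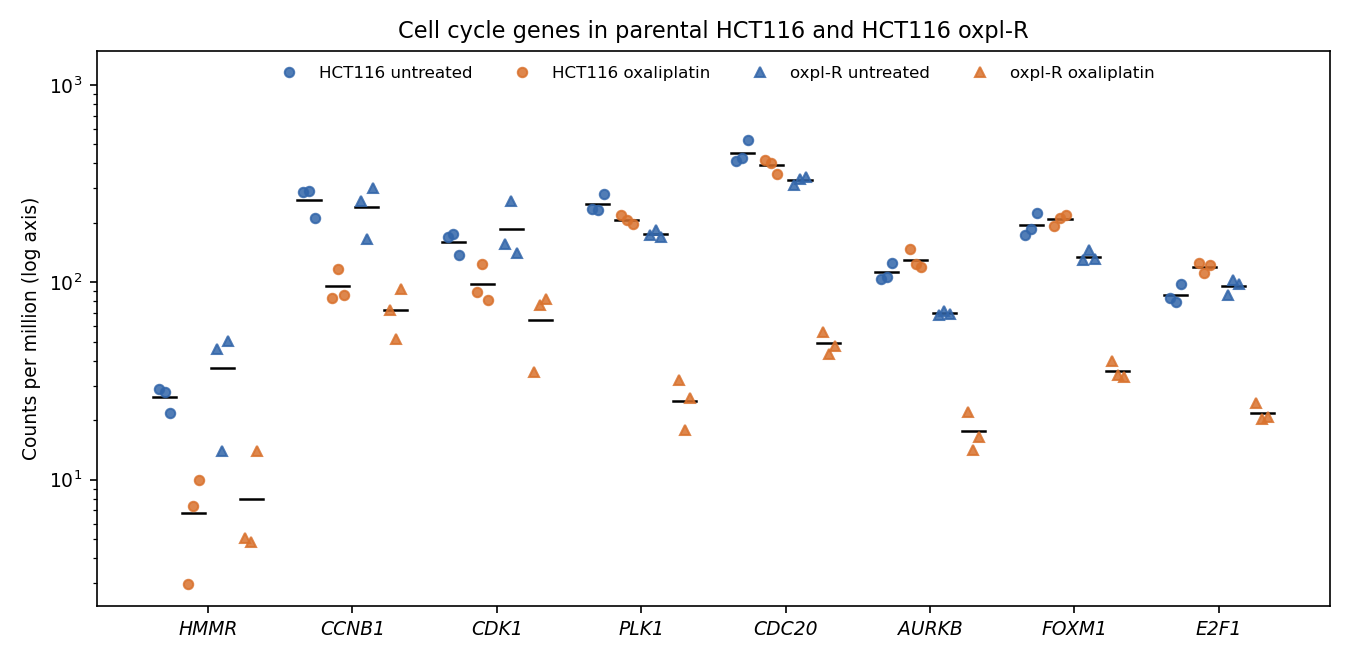
CPM (log axis) of 8 cell cycle genes in HCT116 (circles) and HCT116 oxpl-R (triangles), untreated (blue) and with oxaliplatin (orange), with 1 point per library and a bar at each mean of 3 libraries. The means of HMMR and CCNB1 are lower with the drug in both lines, while PLK1, CDC20, AURKB, FOXM1 and E2F1 lie near or above their untreated level in HCT116 and far under it in HCT116 oxpl-R.

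Induction of E1A by doxycycline 3 h ahead of the drug was compared in the same way. Of 20731 genes tested, 0 (0%) had a response that differed between HCT116 cells with and without doxycycline by the edgeR test, 987 had an unadjusted p below 0.05, and DESeq2 called 16. Leaving out replicate 1 of the group with doxycycline and oxaliplatin, whose ribosomal protein genes took 7.19% of the counts against 10.99% and 9.84% in the other two, gave 578 called genes. CDKN1A had 211, 205 and 193 CPM with doxycycline alone and 1630, 1250 and 1220 CPM with both, beside 147, 137 and 148 and 2140, 1780 and 1720 CPM without doxycycline, and the difference in response did not pass the test (log2 difference -0.94, edgeR adjusted p = 0.654).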

How the data were processed

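RNA of HCT116 TetOn-E1A cells (3 untreated and 3 oxaliplatin libraries, of 24 in the series) was sequenced as paired reads from an mRNA kit. Per the labels and the study's methods, the authors trimmed reads with Trimmomatic, quantified them on transcripts of GRCh38 with Salmon 1.6.0 and summed them per gene. The authors deposited estimated counts without normalization (17.4% to 20.1% of values not whole, all rounded here). The table used ends at SETP6 (33113 genes). A second deposited table, named TPM, sums to 33702953 to 35341674 per sample and followed the estimated counts (median log2 ratio -0.0061, SD 0.14), so it was read as length-scaled estimated counts, another unit than planned. It served for 4854 genes after SETP6, with p-values adjusted within its own fit. The last line of each table was incomplete and was left out, later genes were not analysed here, and 0 value columns lacked a sample. Deposited values of the authors' own comparisons were not used.

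Genes with a count in any library were fitted with edgeR 4.0.16 (TMM, quasi-likelihood test, R 4.3.3) with Benjamini-Hochberg adjustment, after the script was tested on simulated data. The response was fitted on the 6 libraries, and the comparisons with HCT116 oxpl-R and with E1A on 12 each with an interaction term. The fold of a gene at 0 uses a limit of 3 counts over the group. Named genes are the key genes of each list, the largest called rise and fall of each list, and the 10 largest rises and falls at an absolute log2FC above 1 without overlap and with at least 10 counts in each library of the higher group. Of 102 such genes, most are given with values, and some genes are not reported here. The gene lists were chosen with earlier results of these data known. List counts are descriptions, and no set test was run. Gene positions, lengths and GC content come from GENCODE on GRCh38 by symbol, and promoters from RefSeq (GRCh38.p14). Without strand in the stated counting, overlapping and antisense genes cannot be told apart. Same-numbered libraries did not deviate together, so no block was used. Alternatives were RLE, filterByExpr, DESeq2 1.42.0, limma 3.58.1, glmTreat, the second table alone, 24 samples, a replicate block and each library left out.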

Additional observations from a re-analysis of the deposited data

Results flagged for a closer look

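Of 102 named genes, 23 had a response to oxaliplatin that differed between HCT116 oxpl-R and HCT116 by the interaction term (edgeR adjusted p below 0.05). Among all 21018 genes tested, 0.756% responded more positively in HCT116 oxpl-R and 1.86% more negatively. The values are log2 differences, the response in HCT116 oxpl-R minus that in HCT116, from 3 libraries per group. More negative in HCT116 oxpl-R were the mitotic genes PLK1 (-2.591), CDC20 (-2.58), AURKB (-2.242), BIRC5 (-2.198), MKI67 (-2.088) and FOXM1 (-2.077). The same held for the replication genes E2F1 (-2.65), TK1 (-2.048), MCM2 (-1.756), POLD1 (-1.34) and RRM2 (-1.053). Of the p53 pathway, BBC3 (-1.263), DDB2 (-0.951) and CDKN2A (-1.975) were more negative, and MDM2 (1.569) and MDM4 (1.128) more positive. DDIT3 (1.79), EGR1 (1.006), NPM1 (1.268) and ST6GALNAC3 (3.179), which fell in HCT116, were more positive in HCT116 oxpl-R. ATOX1 (-1.042), INPP5D (-2.375) and GZMM (-2.524), which rose in HCT116, were more negative. CDKN2A, MDM4, POLD1, NPM1, ST6GALNAC3, ATOX1, INPP5D and GZMM were named only for a large change in HCT116. The difference subtracts that same change, from the same HCT116 libraries, so the choice itself favours an opposite sign. The sign of a difference does not give the direction in HCT116 oxpl-R itself. DDIT3 counted 9, 8.87 and 5.46 CPM in untreated and 3.84, 4.32 and 3 CPM in treated HCT116, and 10, 11 and 7.2 and 17.2, 16.2 and 14.8 CPM in HCT116 oxpl-R. CDKN2A had 82.1, 72.8 and 95.8 and 271, 202 and 171 CPM in HCT116 and 61.7, 77.8 and 59.2 and 56.9, 46.9 and 30.5 CPM in HCT116 oxpl-R.

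MDM2, PLK1, AURKB, BIRC5, CDC20, FOXM1, MKI67, MCM2, E2F1, TK1, CDKN2A and INPP5D stayed past the threshold in all 12 fits that left out 1 library. The others lost the call in some of these fits: DDIT3, POLD1 and GZMM in 2, BBC3 in 3, NPM1 in 6, DDB2, RRM2 and MDM4 in 8, ATOX1 and ST6GALNAC3 in 9, and EGR1 in 10. No cause of these differences was tested.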

How the results depend on the processing

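Values are counts of genes at an edgeR adjusted p below 0.05. RLE normalization, genes kept by filterByExpr, all 24 samples in one fit, the second table alone, DESeq2 and, chosen after seeing the data, mitochondrial genes left out before normalization kept the counts of the HCT116 response within 1.5 times of 4404. With the trend of each library over transcript GC content and length removed, also chosen after seeing the data, 2646 genes were called and 1368 rose, with 403 rises over a log2FC of 1 and 265 falls under -1 (main 840 and 621), and the log2FC of E2F1 was -0.038 and that of BNIP3L 0.013, both with reversed sign and neither called. Rises over 1 numbered 315 by limma on log2(value + 1) of the second table as CPM and 545 on log2(value + 0.1), and a test against a log2FC of 1 (glmTreat) gave 62 rises and 22 falls. Of 102 named genes, 101 kept direction and side of the threshold with DESeq2, 102 with RLE and 92 in the fit of 24 samples. 

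The replicate numbers gave no sign of pairing the samples, though so few libraries cannot exclude it. Over 12848 genes, deviations of same-numbered libraries correlated at -0.068, -0.08 and -0.169, and those of other pairs at -0.162 to 0.211. With the replicate number as a block, 2344 genes were called (1449 higher, 895 lower), 27 G2 and M genes and 20 replication genes fell, and 25 named genes were no longer called. In the comparison with E1A the block called 1 gene (1 higher).

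Without 1 library, the calls ranged from 1824 to 8158 (1142 to 3845 higher, 682 to 4313 lower), the rises over a log2FC of 1 from 571 to 1055 and the falls under -1 from 370 to 1895. G2 and M genes that fell ranged from 23 to 63, replication genes that fell from 16 to 51 and p53 targets that rose from 48 to 76. The lowest values came mostly without untreated replicate 1 or 2 and the highest without oxaliplatin replicate 3. In the comparison of lines the calls ranged from 163 to 1894 (37 to 915 higher, 126 to 979 lower), DESeq2 called 1603 (552 higher, 1051 lower) and filterByExpr 1003, of which 76.7% were lower (main 549, of which 71% were lower). In the comparison with E1A they ranged from 0 to 578 (0 to 525 higher, 0 to 53 lower), with 16 by DESeq2 (5 higher, 11 lower) and 1 by RLE (1 higher). The cause of these shifts was not tested, except that fewer samples leave fewer degrees of freedom.

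Depth limits only genes of few counts, and the spread between libraries limits the rest. Genes whose oxaliplatin replicate 3 differs from replicates 1 and 2 (ATR, BRCA1, FANCD2, MKI67, ABCC2) cannot be called from these libraries together.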

Other observations

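Gene groups outside the lists of the report were looked at after their values were seen, so they get no test as groups. Of 28 chaperones and heat shock proteins, which fold new and damaged proteins, 18 fell and 2 rose (median log2FC -0.71), beside 10.0% and 13.2% of all tested genes. HSPA8, the constitutive cytosolic HSP70, had 57858, 54745 and 46278 in the untreated libraries and 11261, 15771 and 16855 in the oxaliplatin libraries normalized counts (log2FC = -1.86, SE 0.18, edgeR adjusted p = 0.000467). HSPD1, the mitochondrial chaperonin, had 40617, 40705 and 29861 in the untreated libraries and 9491, 15409 and 16775 in the oxaliplatin libraries (log2FC = -1.42, SE 0.22, edgeR adjusted p = 0.00256). In both genes the oxaliplatin libraries lay under all untreated libraries. The 2 that rose were HSPB1, a small heat shock protein, and HSF1, the factor of the heat shock response (log2FC 0.90 and 0.72). With the trend over transcript GC content and transcript length removed, 14 fell and none rose.

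Of 83 cytosolic ribosomal proteins and paralogs, 12 fell and 3 rose, with a median log2FC of 0.03, beside 10.0% and 13.2% of all tested genes. RPL3, a subunit next to the peptidyl transferase centre, had 99731, 94213 and 95498 in the untreated libraries and 30335, 29513 and 22800.0 in the oxaliplatin libraries (log2FC = -1.81, SE 0.15, edgeR adjusted p = 0.000291), while RPS2 was higher at 214087, 196102 and 244437 in the untreated libraries and 393419, 303908 and 288986 in the oxaliplatin libraries (log2FC = 0.59, SE 0.17, edgeR adjusted p = 0.0349). RPL5 and RPL11, which bind MDM2 when ribosome assembly is blocked, had log2FC of -0.75 and -0.75 (edgeR adjusted p = 0.00339 and 0.0463). Among 6 translation elongation factors, EEF1A1 had 380169, 343495 and 261391 in the untreated libraries and 105692, 133254 and 133625 in the oxaliplatin libraries (log2FC = -1.40, SE 0.19, edgeR adjusted p = 0.00141), EEF1D a log2FC of -1.37, and EEF1A2 one of 0.62. Ribosomal protein genes have many processed pseudogenes and EEF1A1 has near copies, so these counts are uncertain. With the trend removed, RPL3 had a log2FC of -2.22, EEF1A1 of -0.99 and RPS2 of 0.12 (edgeR adjusted p = 9.42e-06, 0.00182 and 0.515).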
